A study of Mus musculus with 2 samples.

Results

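The 10 genes described here encode the enzymes that make prostaglandins and leukotrienes from arachidonic acid, together with 1 prostaglandin receptor. They were chosen by symbol from the 31253 genes that the files list, and all 10 were found: Pla2g4a, Ptgs1, Ptgs2, Ptges, Hpgds, Alox5, Alox5ap, Ltc4s, Alox15 and Ptger4. The data are single-cell RNA-seq of Cd45+ cells sorted from B16-F10 tumors (B16-F10 is a transplantable mouse melanoma) grown in C57BL/6 mice for 10 days after injection of 200000 cells under the skin of the flank. The hosts were wild-type at Irg1 (also named Acod1, the enzyme that makes itaconate) in the first library, Irg1+/+, and carried the germline deficiency Irg1-/- in every cell in the other, a line kept on the C57BL/6J background, while the tumor cells were the same line in both. Pieces of 100 mm3 from the tumors of 3 mice were mixed for each genotype, and 6000 cells were sorted per library, so there is 1 library per genotype and genotype, mouse pool and library preparation cannot be told apart. No test between genotypes was made, and every interval given below is a 95% interval for counting error only.

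The files hold 6408 cells for Irg1+/+ and 5896 for Irg1-/-. After removal of cells with at least 10% mitochondrial reads, 6284 and 5794 cells remained, with medians of 4528 and 4594.5 unique molecular identifiers (UMIs, counted molecules) per cell. The 10 genes had 43335 UMIs in the Irg1+/+ library and 37939 in the Irg1-/- library. Levels are given as CPM, the UMIs of a gene summed over the cells of a class scaled to 1e+06 UMIs of that class. In total 36 barcodes occur in both libraries, and leaving out their cells moved no ratio of these genes beyond its interval.

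Eicosanoids begin with cytosolic phospholipase A2, which frees arachidonic acid from membranes. Cyclooxygenases turn it into the prostaglandin precursor that synthases such as Ptges and Hpgds convert to prostaglandin E2 and prostaglandin D2, while 5-lipoxygenase, with its helper protein, opens the leukotriene branch. Prostaglandin E2 made in tumors is known to dampen dendritic cells and lymphocytes through its receptors, and eosinophils, mast cells and basophils are known sources of leukotriene C4.

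The targeted gene was read first. Acod1 (chr14:103046977-103056573, plus strand) had 3696 UMIs or 87.8 CPM in the Irg1+/+ library and 3805 UMIs or 108 CPM in the library labelled Irg1-/-. In macrophage and monocyte-like cells its level was 134 CPM and 149 CPM in the same order, and in neutrophil-like cells 2855 and 1911 CPM. Acod1 RNA was therefore not absent from the library labelled Irg1-/-. The assay counts the 3′ end of transcripts, and which part of the gene the deficient allele lacks is not given in the sources used here, so these counts do not check the labels.

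Cells were clustered without the 10 genes and without 48 further genes of the pathway, and the clusters were named from marker genes. Neutrophil-like cells numbered 68 in the Irg1+/+ library and 201 in the library labelled Irg1-/-, eosinophil-like cells 119 and 168, macrophage and monocyte-like cells 2346 and 2143, and dendritic cell-like cells 1064 and 1112. All 8 neutrophil markers were above the rest of the cells in both libraries, as were all 11 markers of macrophages and monocytes and all 11 of dendritic cells. Of 8 eosinophil markers 6 were above the rest, among them the eotaxin receptor Ccr3, at 503 and 774 CPM, and Il5ra, whereas the granule gene Epx and Clec4a4 had 0 UMIs. The eosinophil-like class is shallow, with medians of 708 and 921 UMIs per cell, and its score for basophil markers, 2.700, was close to that for eosinophil markers, 2.655. With 20 principal components mast cell markers, 3.732, and basophil markers, 3.701, scored highest. Eosinophil markers summed to 1742 and 2589 CPM in the class and mast cell markers, which include Hdc, Gata2 and Fcer1a, to 3149 and 1589 CPM, so the name is uncertain. It held 5 cells with basophil genes (at least 2 UMIs of Mcpt8, Prss34 and Cd200r3), 4 of them in the Irg1+/+ library, and 1 cell in each library with more than 5000 UMIs that carried 23.5% and 12.0% of the UMIs of the class. The levels of Ptgs2 and Alox15 in this class are given with and without these cells. T and NK cell-like cells, with 1122 and 1108 cells, served as the measure of free RNA for all of the genes except Ptger4, which lymphocytes express.

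**Figure D1:**
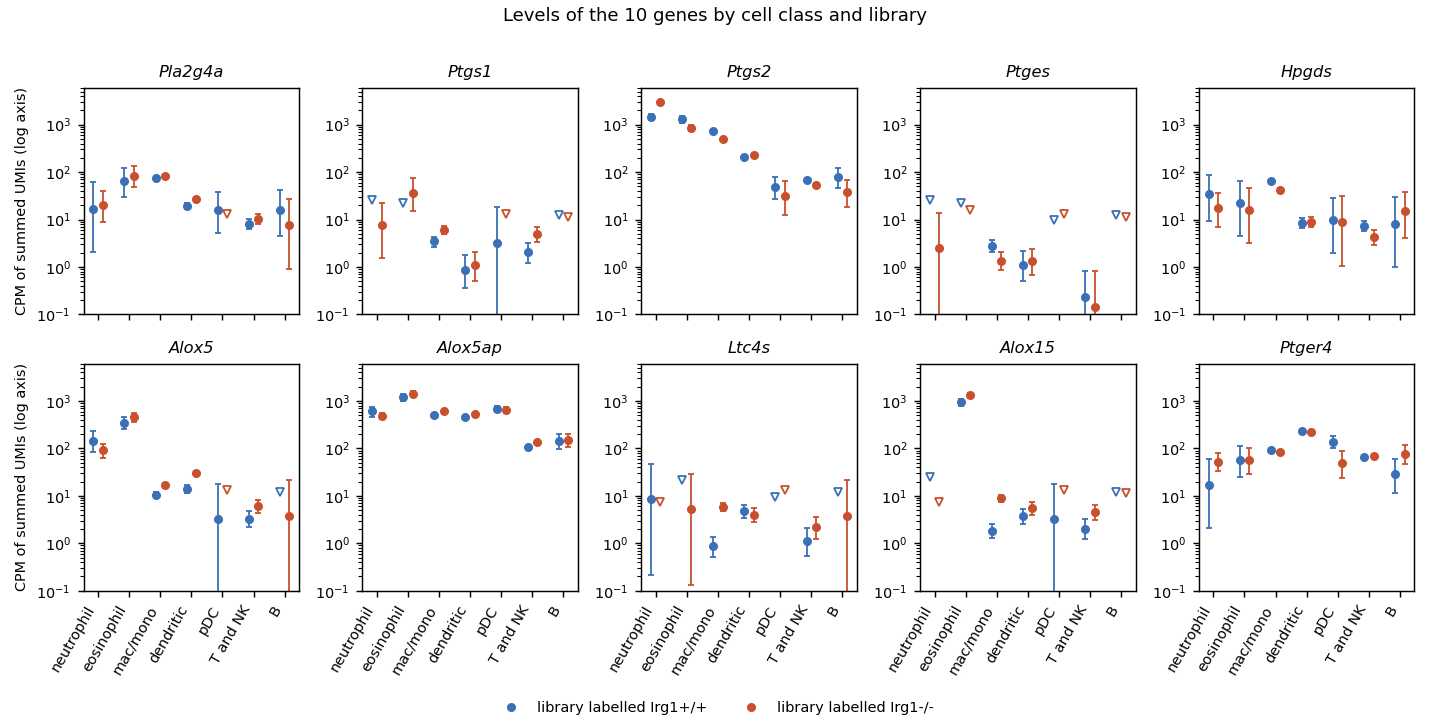
CPM of summed UMIs on a log axis for each of the 10 genes (panels) in 7 cell classes (x axis) of the library labelled Irg1+/+ (blue) and that labelled Irg1-/- (red). Points are 1 library each with 95% Poisson intervals, some of which run below the axis, and open triangles mark 0 UMIs, drawn at the level of 3 UMIs. Alox15 stood at 933 and 1326 CPM in eosinophil-like cells and under 10 CPM in macrophage and monocyte-like, dendritic cell-like and T and NK cell-like cells.

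Pla2g4a (chr1:149829618-149961290, minus strand), the cytosolic phospholipase A2 that releases arachidonic acid, was a gene of macrophages and monocytes here. Its level in these cells was 75.1 CPM (71.3 to 79.0) for Irg1+/+ and 82.8 CPM (78.5 to 87.4) for Irg1-/-, and they held 80.2% and 75.9% of all its UMIs. Eosinophil-like cells, at 65.6 and 84.2 CPM from 9 and 16 UMIs, did not stand apart from macrophages within their wide intervals. Dendritic cell-like cells had 19.3 and 26.6 CPM and T and NK cell-like cells 8.0 and 10.5 CPM. Among the macrophage and monocyte states it was most abundant in interferon-activated monocyte-like cells of the Irg1+/+ library, with 120 CPM, and in cycling macrophage-like cells of the library labelled Irg1-/-, with 149 CPM. Dendritic cells and lymphocytes thus lay below macrophages in both libraries. The ratio of Pla2g4a between the libraries in macrophages and monocytes was 0.14 on the log2 scale (0.03 to 0.25), Irg1-/- over Irg1+/+.

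Ptgs2 (chr1:150100031-150108227, plus strand) encodes the inducible cyclooxygenase and lies 138.7 kb from Pla2g4a. The 250 bases before its annotated start are shown because the level of Ptgs2 varied widely among myeloid states, and those of Alox5 because its level was high in eosinophil-like cells. Both sequences are from RefSeq (GRCm38.p6), written 5′ to 3′ on the strand of the gene, for chr1:150099781-150100030 (plus strand) and chr6:116461179-116461428 (minus strand). Capitals mark TTGCGNAA, the palindrome bound by C/EBP proteins, in Ptgs2, and GGGCGG, the core of the GC box, in Alox5, each searched on both strands.
Ptgs2: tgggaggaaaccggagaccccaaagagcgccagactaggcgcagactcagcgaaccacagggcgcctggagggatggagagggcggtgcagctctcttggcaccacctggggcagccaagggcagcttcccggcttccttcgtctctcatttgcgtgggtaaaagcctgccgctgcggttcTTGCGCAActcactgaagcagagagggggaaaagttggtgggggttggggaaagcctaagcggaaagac
Alox5: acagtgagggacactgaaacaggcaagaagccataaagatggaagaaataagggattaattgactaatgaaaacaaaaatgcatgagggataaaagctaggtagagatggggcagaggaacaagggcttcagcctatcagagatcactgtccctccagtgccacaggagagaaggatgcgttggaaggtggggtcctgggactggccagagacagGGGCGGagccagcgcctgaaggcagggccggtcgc
TTGCGNAA was found in 1 of the 8 genes with a promoter in the table, and in 0.670% of all 32851 promoters of this length. GGGCGG was found in Ptgs2, Ptges, Alox5 and Ptger4 and in 32.7% of all promoters, and in Ptgs2 it does not overlap the TTGCGNAA match. The TATA box letters TATAAA (in 12.4% of all promoters), the cyclic AMP response core TGACG (17.8%), the E-box and hypoxia core ACGTG (16.6%) and the AP-1 letters TGANTCA (6.75%) had no match in the 8 windows. These matches describe letters only. Bases after the annotated start, or further upstream, were not searched, so the lack of a match holds for these windows alone.

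Ptgs2 was high in neutrophils. In neutrophil-like cells 175 UMIs gave 1483 CPM (1271 to 1719) in the Irg1+/+ library, and 1172 UMIs gave 2950.1 CPM (2784 to 3124) in the library labelled Irg1-/-. These intervals do not overlap. With every cell thinned to 500 UMIs, 38.2% (26.7 to 50.8) of 68 neutrophil-like cells and 50.7% (43.6 to 57.9) of 201 had a Ptgs2 UMI, against 2.58% and 2.35% of T and NK cell-like cells, so the intervals of these shares overlap between the libraries. The highest count in a single neutrophil-like cell was 11 and 85 UMIs, and the 10 cells with the most held 48.0% and 33.1% of the class total.

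Eosinophil-like cells had 1290.1 CPM (1107 to 1495) of Ptgs2 in the Irg1+/+ library, and the other library had 847 CPM (721 to 989). This difference rested on few cells. Of the 177 Ptgs2 UMIs in the Irg1+/+ library, 71 came from the 4 cells with basophil genes, and without all 5 such cells the levels were 839 CPM (687 to 1015) and 761 CPM (641 to 897). Without the 1 cell over 5000 UMIs in each library they were 1524 CPM (1297 to 1779) and 957 CPM (815 to 1118). The share of cells with a Ptgs2 UMI at 500 UMIs was 22.4% and 22.9%.

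Macrophage and monocyte-like cells had 744 CPM (732 to 757) of Ptgs2 in the Irg1+/+ library and 506 CPM (495 to 517) in the other, and they held 80.2% and 65.2% of all Ptgs2 UMIs. Thinned to 2000 UMIs, 49.4% and 40.3% of these cells had a UMI, against 9.83% and 9.81% of T and NK cell-like cells. Dendritic cell-like cells had 207 and 229 CPM. In the library labelled Irg1-/- neutrophils lay above eosinophils, eosinophils above macrophages and macrophages above dendritic cells, each outside the interval of the next. In the Irg1+/+ library the intervals of neutrophils and eosinophils overlapped, and eosinophils were the higher without the cell over 5000 UMIs. Eosinophils there did not stand apart from macrophages without the cells with basophil genes. With gates on marker UMIs, described below, eosinophils had 329 and 301 CPM, below macrophages and monocytes at 672 and 481 CPM. Gated eosinophils that were also in the eosinophil-like cluster had 1601 and 561 CPM.

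Within macrophages and monocytes the level of Ptgs2 differed between states more than between libraries. Hypoxic Vegfa macrophage-like cells, named from Vegfa, Hilpda and other genes, had 1411 CPM in the Irg1+/+ library and 1338 CPM in the other. A subcluster without a name that was led by Rsad2, Ifit1 and the nitric oxide synthase Nos2 had 1345 and 1198 CPM, and Ccl24 Mgl2 Fn1 macrophage-like cells had 929 and 842.5 CPM. Classical monocyte-like cells were far lower, at 282 and 267 CPM. This subcluster of 714 cells was named from Hp, Ifitm6 and Chil3 but also had the nonclassical monocyte genes Ace and Adgre4 among its leading genes, and with all variable genes the split was 538 classical and 403 nonclassical monocyte-like cells in place of 714 and 79, so its levels are those of a mixed group. Another subcluster, led by Gas6, Igf1 and Ccl8, had 179 and 228 CPM. A subcluster of this class led by the T cell genes Tcf7, Icos and Cd3g had 1144 and 564 CPM from 136 and 55 cells, and doublets were not removed.

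The states also took different shares of the 2 libraries. Hypoxic Vegfa macrophage-like cells numbered 340 and 142 and Ccl24 Mgl2 Fn1 macrophage-like cells 421 and 205, both high in Ptgs2, whereas interferon-activated monocyte-like cells numbered 150 and 355. The largest subclusters were these Ccl24 cells in the Irg1+/+ library and, in the other, a subcluster led by Lipg, Cd300e and Gbp2b with 396 cells. The log2 ratio of Ptgs2 over all macrophages and monocytes was -0.56 (-0.60 to -0.52). With the subclusters of the library labelled Irg1-/- weighted by their shares of UMIs in the Irg1+/+ library, it was -0.24, from a weighted level of 629.6 CPM, and -0.18 with the weights of the other library. Of 12 subclusters 9 were lower and 3 higher in the library labelled Irg1-/-, with a median of -0.15. The most negative was that of Retnla Ear2 macrophage-like cells, at 666 and 254 CPM from 40 and 46 cells, and the most positive that of a subcluster led by Ednrb, Cbr2 and Cd163, at 198 and 381 CPM from 47 and 261 cells.

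Among the named dendritic cell states Ptgs2 was highest in type 2 dendritic cell-like cells, the Cd209a-expressing subset, at 453 and 345 CPM. Migratory dendritic cell-like cells, marked by Ccr7 and Fscn1, had 172 and 225 CPM, but of their 2 subclusters that led by H2-Eb2 and Ccl17 had 409.9 and 436 CPM. A subcluster led by Ifit2 and other interferon-response genes had 349 and 343 CPM from 45 and 187 cells, and type 1 dendritic cell-like cells, which present antigen to CD8 T cells, had 76.4 and 74.8 CPM, close to the 68.0 and 54.5 CPM of T and NK cell-like cells. A small subcluster led by Siglech and Ccr9, genes of plasmacytoid dendritic cells, had 404 CPM from 27 cells and 67.7 CPM from 47 cells.

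**Figure D2:**
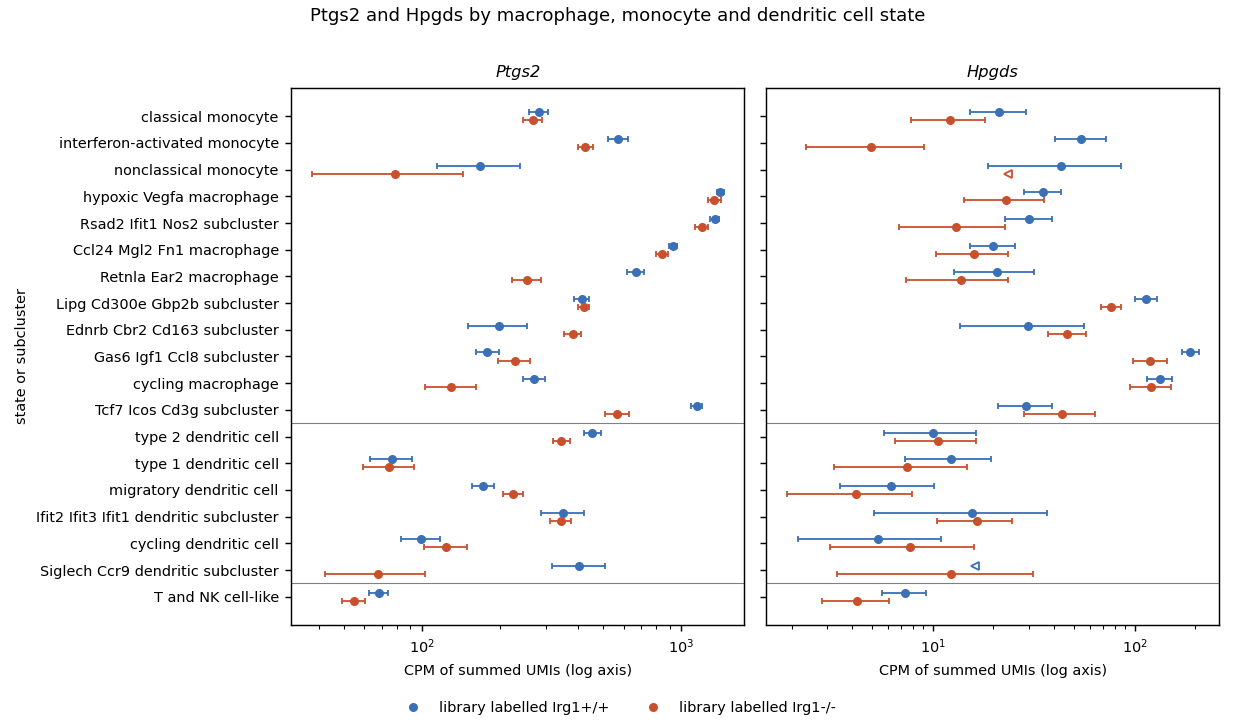
CPM of summed UMIs on a log axis for Ptgs2 and Hpgds in 12 subclusters of macrophages and monocytes, 6 dendritic cell states or subclusters, and T and NK cell-like cells (rows, separated by grey lines), for the library labelled Irg1+/+ (blue) and that labelled Irg1-/- (red). Points are 1 library each with 95% Poisson intervals and open triangles mark 0 UMIs, drawn at the level of 3 UMIs. Ptgs2 stood between 1198 and 1411 CPM in the hypoxic Vegfa state and the Rsad2 Ifit1 Nos2 subcluster of both libraries, whereas Hpgds was high in the Gas6 Igf1 Ccl8 subcluster, at 189 and 119.6 CPM.

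Ptgs1 (chr2:36230426-36252272, plus strand), the constitutive cyclooxygenase, was scarce in most classes, with the T and NK cell-like level at 2.05 and 4.97 CPM. Macrophage and monocyte-like cells had 3.46 CPM from 68 UMIs and 6.15 CPM from 99 UMIs, and the libraries differed in the same direction in T and NK cell-like cells. Retnla Ear2 macrophage-like cells stood above this background in the library labelled Irg1-/-, with 25.6 CPM from 24 UMIs against 7.89 CPM from 8 UMIs in the other. In eosinophil-like cells Ptgs1 had 0 UMIs in the Irg1+/+ library, where 3 UMIs would be 21.9 CPM, and 7 UMIs or 36.8 CPM in the other. Melanoma cell-like cells, 73 and 19 in number, had 3 UMIs or 2.22 CPM and 11 UMIs or 35.7 CPM.

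Ptges (chr2:30889471-30929863, minus strand), the inducible prostaglandin E2 synthase that commonly works with Ptgs2, had few UMIs. Macrophage and monocyte-like cells held 55 and 22 of them, or 2.80 CPM (2.11 to 3.65) and 1.37 CPM (0.856 to 2.07). T and NK cell-like cells had 2 and 1 UMIs, so free RNA of this gene was at or near 0. Melanoma cell-like cells had 2 UMIs or 1.48 CPM and 8 UMIs or 26.0 CPM. Neutrophil-like cells, which are high in Ptgs2, had 0 Ptges UMIs in the Irg1+/+ library, where 3 UMIs would be 25.4 CPM. They had 1 UMI in the other, or 2.52 CPM (0.0637 to 14.0). At this depth a difference of Ptges between granulocytes and macrophages was not detectable.

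Hpgds (chr6:65117293-65144908, minus strand), the hematopoietic synthase of prostaglandin D2, followed another set of macrophages than Ptgs2. The whole class had 64.7 CPM (61.2 to 68.3) in the Irg1+/+ library and 42.2 CPM (39.1 to 45.5) in the other. Neutrophil-like and eosinophil-like cells had at most 7 UMIs in a library, and melanoma cell-like cells had 71.9 and 68.1 CPM. The Gas6 Igf1 Ccl8 subcluster had a high level, 189 and 119.6 CPM, together with cycling macrophage-like cells at 133.5 and 120.3 CPM, and the Lipg Cd300e Gbp2b subcluster had 114 and 76.6 CPM. Ccl24 Mgl2 Fn1 macrophage-like cells, which are high in Ptgs2, had 19.9 and 16.0 CPM of Hpgds. Interferon-activated monocyte-like cells had 49 UMIs or 54.5 CPM in the Irg1+/+ library and 10 UMIs or 4.93 CPM in the other, the latter near the 4.24 CPM of T and NK cell-like cells.

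Alox5 (chr6:116410077-116461178, minus strand), the 5-lipoxygenase that starts leukotriene synthesis, was highest in eosinophil-like cells among the clustered classes. Eosinophil-like cells had 343 CPM (252 to 456) from 47 UMIs in the Irg1+/+ library and 458 CPM (367 to 565) from 87 UMIs in the other. Neutrophil-like cells followed with 144 CPM (83.9 to 231) and 90.6 CPM (63.5 to 125). Both granulocyte classes lay above macrophage and monocyte-like cells, at 10.4 and 16.6 CPM, and above dendritic cell-like cells, at 14.3 and 29.8 CPM, while T and NK cell-like cells had 3.30 and 5.99 CPM. Being few, eosinophil-like cells held 10.5% and 11.8% of all Alox5 UMIs and neutrophil-like cells 3.80% and 4.88%, against 45.6% and 36.4% in macrophages and monocytes and 25.5% and 33.2% in dendritic cells. At 500 UMIs per cell, 26.7% (18.9 to 35.7) and 19.3% (13.6 to 26.1) of eosinophil-like cells had an Alox5 UMI, against 0.555% and 0.794% of macrophages and monocytes and 0.357% and 0.451% of T and NK cell-like cells.

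Among dendritic cells Alox5 was concentrated in a few subsets. Type 2 dendritic cell-like cells had 39.0 and 52.1 CPM, the subcluster led by Siglech and Ccr9 had 75.4 and 154 CPM, and cycling dendritic cell-like cells had 13.7 and 56.4 CPM. The plasmacytoid dendritic cell-like class, a separate cluster of 52 and 40 cells also led by Siglech and Ccr9, had 1 and 0 Alox5 UMIs and 48.5 and 31.0 CPM of Ptgs2. Migratory and type 1 dendritic cell-like cells stood at or near the T and NK cell-like level, with 4.54 and 5.07 CPM in the former and 3.41 and 6.55 CPM in the latter. In the macrophage and monocyte class Retnla Ear2 macrophage-like cells had 37.5 and 67.2 CPM, and nonclassical monocyte-like cells 37.9 and 39.3 CPM from 7 and 5 UMIs. The Ednrb Cbr2 Cd163 subcluster had 3.30 CPM from 1 UMI in the Irg1+/+ library and 34.7 CPM from 65 UMIs in the other.

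Alox5ap (chr5:149264767-149288153, plus strand), the protein that hands arachidonic acid to Alox5, was spread over all myeloid classes. Eosinophil-like cells were highest with 1195 CPM (1019 to 1393) and 1410.3 CPM (1246 to 1589.6), and neutrophil-like cells had 602 and 486 CPM. Macrophage and monocyte-like cells had 506 and 630.0 CPM and dendritic cell-like cells 462 and 543 CPM, all above the 106 and 138 CPM of T and NK cell-like cells. With gates on marker UMIs, described below, this order did not hold in the Irg1+/+ library. There eosinophils had 371 CPM, below neutrophils at 623 CPM, macrophages and monocytes at 513 CPM and dendritic cells at 450 CPM. In the other library the eosinophil gate was still the highest, at 694 CPM. Gated eosinophils that were also in the eosinophil-like cluster had 1601 and 1773 CPM, above gated neutrophils also in their cluster, at 782 and 558 CPM. The mixed classical monocyte-like group had 864 and 928 CPM, more than hypoxic Vegfa macrophage-like cells, at 449 and 559.6 CPM, which is the reverse of the order for Ptgs2. Migratory dendritic cell-like cells were low, at 121 and 185 CPM, while type 1 dendritic cell-like cells had 761 and 747 CPM. The larger migratory subcluster, led by Sod3 and Il12b, had 108 and 141 CPM, close to the T and NK cell-like level.

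Ltc4s (chr11:50236461-50238616, minus strand), which joins glutathione to leukotriene A4, was near the background. Eosinophil-like cells had 0 UMIs in the Irg1+/+ library, where 3 UMIs would be 21.9 CPM, and 1 in the other, and neutrophil-like cells had 1 and 0. Macrophage and monocyte-like cells had 17 UMIs or 0.866 CPM and 95 UMIs or 5.90 CPM, beside 1.14 and 2.19 CPM in T and NK cell-like cells. The Ednrb Cbr2 Cd163 subcluster held 43 of the 95 UMIs, at 23.0 CPM, against 1 UMI and 3.30 CPM in the Irg1+/+ library. Migratory dendritic cell-like cells had 14.0 and 9.21 CPM of Ltc4s, above the background in both libraries.

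**Figure D3:**
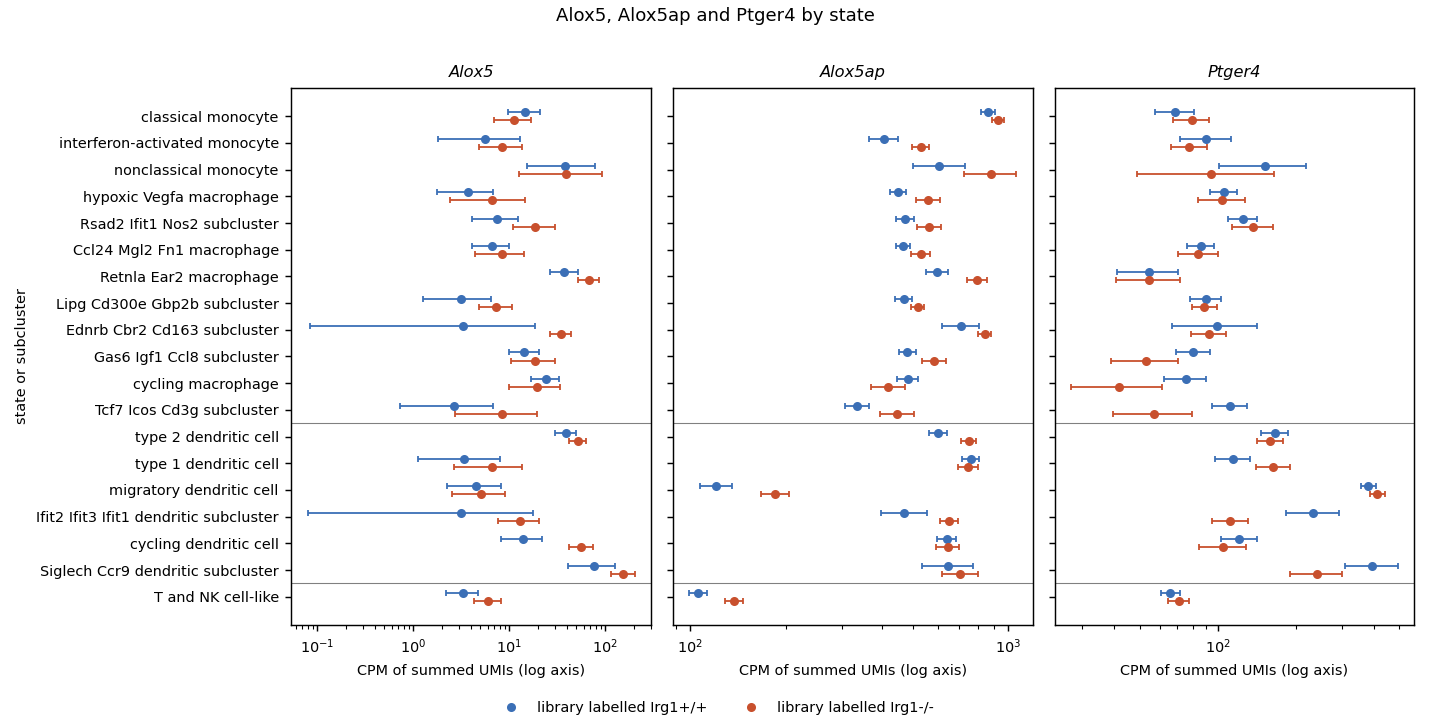
CPM of summed UMIs on a log axis for Alox5, Alox5ap and Ptger4 in 12 subclusters of macrophages and monocytes, 6 dendritic cell states or subclusters, and T and NK cell-like cells (rows, separated by grey lines), for the library labelled Irg1+/+ (blue) and that labelled Irg1-/- (red). Points are 1 library each with 95% Poisson intervals. Migratory dendritic cell-like cells had 380.2 and 411 CPM of Ptger4 but 121 and 185 CPM of Alox5ap, below the other dendritic groups drawn.

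Alox15 (chr11:70344152-70352031, minus strand), the 12/15-lipoxygenase, marked the eosinophil-like class. It had 128 UMIs or 933 CPM (778 to 1109) there in the Irg1+/+ library and 252 UMIs or 1326 CPM (1167 to 1500.3) in the other, which is 53.8% and 50.5% of all Alox15 UMIs from 1.89% and 2.90% of the cells. At 500 UMIs, 39.7% and 41.6% of eosinophil-like cells had a UMI, against 0% of neutrophil-like cells in both libraries and 0% and 0.271% of T and NK cell-like cells. The gene was not used to form this cluster. Without the cells with basophil genes its levels were 997 and 1346 CPM, and without the cells over 5000 UMIs 1209.5 CPM (1008 to 1439) and 1502 CPM (1322 to 1699). Macrophage and monocyte-like cells had 1.83 CPM from 36 UMIs, at the 2.05 CPM of T and NK cell-like cells, in the Irg1+/+ library, and 8.94 CPM from 144 UMIs, beside 4.53 CPM, in the other.

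Ptger4 (chr15:5206661-5244187, minus strand), the EP4 receptor for prostaglandin E2, had its highest level in dendritic cells. In dendritic cell-like cells it stood at 229.8 CPM (219 to 241) and 225 CPM (215 to 236), against 91.0 and 82.9 CPM in macrophages and monocytes and 65.8 and 70.7 CPM in T and NK cell-like cells. Thinned to 2000 UMIs, 33.3% and 31.5% of dendritic cell-like cells had a Ptger4 UMI, and 15.3% and 15.3% of macrophage and monocyte-like cells. Migratory dendritic cell-like cells had 380.2 and 411 CPM, much like a subcluster led by Prnp and Tcf7 with 382 and 408 CPM, and the subcluster led by Siglech and Ccr9 had 393 and 240.0 CPM, while type 2 cells had 166 and 159 CPM and type 1 cells 115 and 164 CPM. Migratory cells were thus high in the receptor and, as given above, low in Alox5ap in both libraries. With their subclusters pooled, they were also below type 2 cells in Ptgs2 in both libraries. The subcluster led by Prnp and Tcf7, which was not named, was likewise low in Alox5ap, at 134 and 193 CPM. The subcluster of migratory cells led by H2-Eb2 and Ccl17 was above type 2 cells in Ptgs2 in the library labelled Irg1-/-.

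The libraries were then compared class by class, and a gene with 20 or more UMIs in the sum of both libraries was counted where its levels differed by at least 1.5-fold. In neutrophil-like cells 3 of the 4 genes that could be counted passed: Ptgs2 and Ptger4 were higher and Alox5 was lower in the library labelled Irg1-/-. Of all 3431 genes counted in this small class 33.5% passed in either direction. The log2 ratio of Ptgs2 was 0.99 (0.76 to 1.23), while that of Alox5 was -0.69 (-1.54 to 0.26) and that of Ptger4 1.35 (-0.39 to 4.78), both with intervals that include 0. Over the genes counted, the median log2 ratio was 0.34 for the 4 of these 10 genes and -0.08 for all genes. A scaling by trimmed means (TMM) raised all neutrophil ratios by 0.23, and Alox5 was then at -0.46, under 1.5-fold. In neutrophils gated on marker UMIs Ptgs2 was at 0.75, while Ptger4, at 0.40, and Alox5, at -0.50, were under 1.5-fold. Ptger4 had under 20 UMIs, and could not be counted, without the top 5% of doublet scores or without the cells over 5000 UMIs. Ptgs2 was at 0.54, under 1.5-fold, with all variable genes used for clustering. Markers of macrophages and monocytes in the neutrophil-like class summed to 1339 and 2477 CPM, with C1qb and Ly6c2 the most abundant. T cell markers were at 551 and 365 CPM, melanoma cell markers at 271 and 62.9 CPM, endothelial cell markers at 144 and 73.0 CPM and platelet markers at 102 and 52.9 CPM. The part of any of these in the result was not tested.

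In eosinophil-like cells 1 of 5 genes passed, where 29.4% of 3022 genes did. It was Ptgs2, lower in the library labelled Irg1-/- by -0.61 (-0.92 to -0.29), and the ratio was -0.14 without the cells with basophil genes and -0.67 without those over 5000 UMIs. It was also under 1.5-fold with TMM, at -0.52, with 20 principal components, at -0.57, and with the mean of each cell's CPM, at -0.25. With gates it was -0.13, and with all variable genes used for clustering it changed sign, to 0.097. The ratios of Alox15, Alox5 and Alox5ap were 0.50 (0.19 to 0.83), 0.41 (-0.11 to 0.96) and 0.24 (-0.05 to 0.53), all under 1.5-fold, and 0.31, 0.21 and 0.20 without the cells over 5000 UMIs. Alox15 passed with TMM, at 0.59, and with all variable genes, at 0.64, Alox5 passed with 20 principal components, at 0.72, and all 3 passed with gates, at 2.45, 2.40 and 0.90. All 6 basophil markers had UMIs in this class in the Irg1+/+ library and 5 in the other, where Prss34 was at 0, and they summed to 634 and 184 CPM, with Gata2 the most abundant. Mast cell markers, with Hdc the most abundant, summed to 3149 and 1589 CPM there, T cell markers were at 1086 and 526 CPM, melanoma cell markers at 233 and 100.0 CPM, neutrophil markers at 488 and 1142 CPM and markers of macrophages and monocytes at 3462 and 3594 CPM. The part of any of these in the result was not tested.

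In macrophage and monocyte-like cells 6 of 10 genes passed, where 12.8% of 12271 genes did. Ptgs1, Alox5, Ltc4s and Alox15 were higher in the library labelled Irg1-/-, with log2 ratios of 0.82 (0.37 to 1.30), 0.68 (0.41 to 0.95), 2.73 (2.01 to 3.61) and 2.27 (1.75 to 2.86). The last 2 were smaller in all cells gated on marker UMIs, with Ltc4s at 2.29 and 4.04 CPM and Alox15 at 4.97 and 11.7 CPM. In gated cells that were also in the class, Ltc4s was at 0.900 and 4.98 CPM and Alox15 at 2.02 and 7.28 CPM. Ptges and Hpgds were lower, with -1.02 (-1.82 to -0.30) and -0.62 (-0.75 to -0.48). Hpgds was under 1.5-fold with TMM, at -0.57, with the mean of each cell's CPM, at -0.45, and with gates, at -0.09, while Ptgs2 passed at -0.60 with that mean and at -0.60 with 20 principal components. With the subclusters weighted as in the Irg1+/+ library 3 of the 6 were under 1.5-fold, Hpgds at -0.52, Ptges at -0.58 and Alox5 at 0.53, whereas with the weights of the library labelled Irg1-/- Hpgds, at -0.57, and Ptges, at -0.37, were under it and Alox5 passed at 0.86. Markers of other cell types also differed in this class. T cell markers summed to 655 and 418 CPM, melanoma cell markers to 249 and 118 CPM, platelet markers to 409 and 297 CPM, neutrophil markers to 163 and 233 CPM and mast cell markers to 74.6 and 112 CPM, and their part in these ratios was not tested. In T and NK cell-like cells 5 of 9 genes passed, where 11.1% of 11463 genes did. The same 4 genes were higher there, with ratios of 1.26 for Ptgs1, 0.85 for Alox5, 0.92 (-0.30 to 2.26) for Ltc4s, from 10 and 15 UMIs, and 1.13 for Alox15, and Hpgds was lower, with -0.77. The part of free RNA in these macrophage ratios was not tested. Pla2g4a, Ptgs2, Alox5ap and Ptger4, with over 1000 UMIs in each library, were under 1.5-fold, at 0.14, -0.56, 0.32 and -0.13. Alox5ap was higher in the library labelled Irg1-/- in 11 of 12 subclusters, by 0.38 in T and NK cell-like cells and by 0.23 in dendritic cell-like cells.

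In dendritic cell-like cells 1 of 9 genes passed, where 12.3% of 11364 genes did. Alox5 was higher in the library labelled Irg1-/- by 1.06 (0.74 to 1.40), from 114 and 245 UMIs, with 0.85 in T and NK cell-like cells. With gates it was at 0.40, under 1.5-fold. In this class markers of macrophages and monocytes summed to 1707 and 2538 CPM, T cell markers to 646 and 429 CPM, melanoma cell markers to 186 and 62.9 CPM and endothelial cell markers to 58.4 and 116 CPM, and their part in the result was not tested. The Alox5 ratio was 0.41 (-0.06 to 0.90) in type 2 dendritic cell-like cells, 2.01 (1.24 to 2.90) in cycling dendritic cell-like cells and 0.99 (0.15 to 2.00) in the subcluster led by Siglech and Ccr9. Ptger4 and Ptgs2 were nearly level between the libraries in this class, at -0.03 (-0.12 to 0.06) and 0.15 (0.05 to 0.24). The median log2 ratio of the counted genes among the 10 was 0.33 in eosinophil-like cells and 0.23 in each of the macrophage and dendritic classes, beside -0.04, -0.06 and -0.04 for all genes counted.

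**Figure D4:**
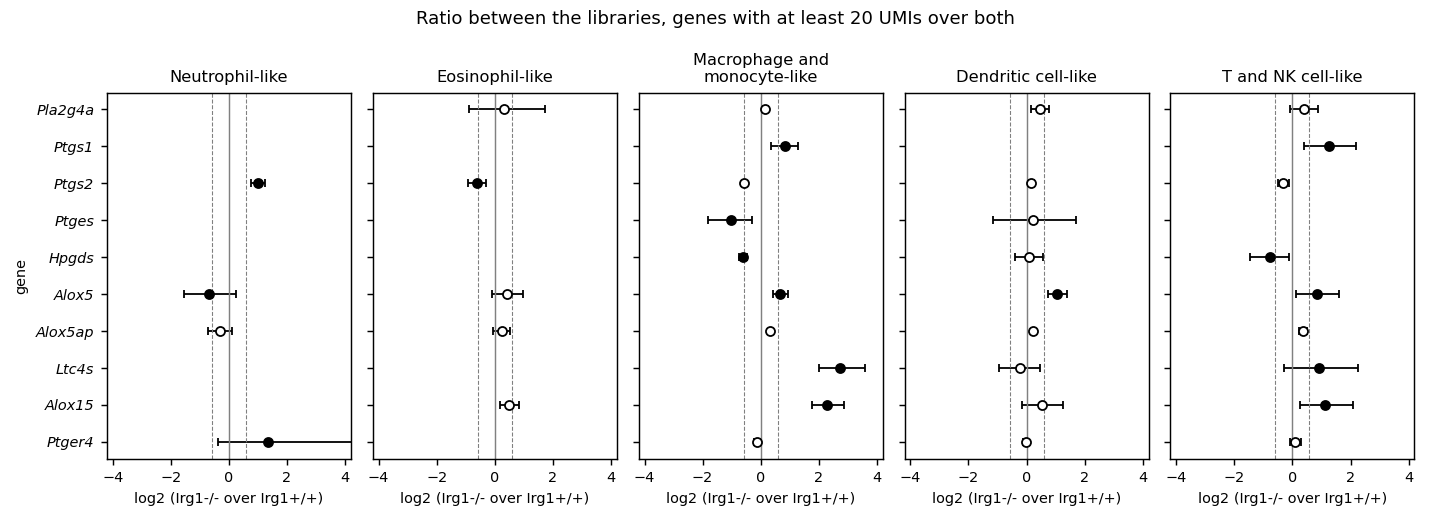
Log2 ratio of CPM, Irg1-/- over Irg1+/+ (x axis), for each gene that had 20 or more UMIs when both libraries are summed (rows) in 4 myeloid classes and in T and NK cell-like cells (panels). Points are single ratios with 95% intervals for counting error, of which that of Ptger4 in neutrophils runs past the axis, filled points passed 1.5-fold, and dashed lines mark 1.5-fold. Ptgs2 was higher in neutrophil-like cells, at 0.99, and Alox15, Ltc4s, Alox5 and Ptgs1 were higher both in macrophages and monocytes and in T and NK cells.

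The rest of the pathway was read from 8 lists with 48 genes, of which 27 reached 100 UMIs in the sum of both libraries and 4 had none. Of the genes that could be counted, 2 were higher and 2 lower of 6 in neutrophils, 1 was higher of 6 in eosinophils, 1 was higher and 4 were lower of 28 in macrophages and monocytes, and 4 were higher and 3 lower of 27 in dendritic cells. Of all genes counted 33.5%, 29.4%, 12.8% and 12.3% passed in these classes. Their median log2 ratios were -0.24, -0.10, -0.09 and 0.04, beside -0.08, -0.04, -0.06 and -0.04 for all genes counted.

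Genes that load arachidonic acid into membranes were present throughout. Lpcat2, an acyltransferase of activated myeloid cells, had 233 and 410 CPM in eosinophil-like cells and passed 1.5-fold there, but was lower in neutrophil-like cells, at 195 and 113 CPM. Acsl4, which activates arachidonic acid, had 255 and 195 CPM in eosinophil-like cells, 140 and 116 CPM in macrophages and monocytes and 25.4 and 55.4 CPM in neutrophils. Mboat7 and Lpcat3 stayed under 1.5-fold in all 4 classes where they could be counted. Of the lipases, Pla2g15 had 43.0 and 44.5 CPM in macrophages and monocytes and Pla2g6 3.9 and 3.6 CPM. Pla2g2d, a secreted phospholipase, had 8 and 21 UMIs there.

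Melanoma cell-like cells showed the highest level of Ptgds, the lipocalin-type synthase of prostaglandin D2, at 1804 and 1285 CPM. In macrophages and monocytes Ptgds was at 19.7 and 6.71 CPM, in dendritic cells the levels were 20.1 and 4.86 CPM and in T cell-like cells 22.0 and 4.96 CPM. The number of melanoma cell-like cells was 73 and 19, and the part of their RNA in these values was not tested. Mgll, a lipase that also releases arachidonic acid, had 225 and 77.9 CPM in melanoma cell-like cells and 2.70 and 0.869 CPM in macrophages and monocytes, in the same direction.

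Thromboxane synthase, Tbxas1, was a myeloid gene, with 46.2 and 53.5 CPM in macrophages and monocytes and 31.0 and 30.03 CPM in dendritic cells. Ptges3, which also serves as a chaperone partner, ran between 94.7 and 221 CPM in neutrophil-like, eosinophil-like, macrophage and monocyte-like, dendritic cell-like and T cell-like cells. Ptges2, Cbr1 and Prxl2b were at or under 21.05 CPM in all 4 myeloid classes. The enzyme that inactivates prostaglandins, Hpgd, had 157 UMIs or 7.99 CPM in macrophages and monocytes of the Irg1+/+ library and 58 UMIs or 3.60 CPM in the other. Ptgr1 had 19.5 and 17.51 CPM, Ptgr2 25.8 and 27.2 CPM and the exporter Abcc4 29.3 and 34.0 CPM in these cells.

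Among prostanoid receptors other than Ptger4, Tbxa2r, the thromboxane receptor, had 48.5 and 88.5 CPM in plasmacytoid dendritic cell-like cells and at most 1.82 CPM in macrophages and conventional dendritic cells. Ptger2 had 7.1 and 7.7 CPM in macrophages and monocytes and 5.1 and 2.4 CPM in dendritic cells, and Ptgir 7.3 and 5.5 CPM and 1.5 and 4.0 CPM in the same order. Ptger1, Ptger3, Ptgdr and Ptgdr2 had at most 6 UMIs per library in macrophages and in dendritic cells.

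On the leukotriene side, Lta4h, which makes leukotriene B4, had 131 and 126 CPM in eosinophil-like cells, 71.6 and 66.8 CPM in macrophages and monocytes and 232 and 227 CPM in NK cell-like cells. Abcc1, the exporter of leukotriene C4, had 93.2 and 40.3 CPM in neutrophil-like cells, from 11 and 16 UMIs. Ltb4r1, the high-affinity receptor for leukotriene B4, had 25.4 and 68.0 CPM in neutrophil-like cells, from 3 and 27 UMIs, and 40.6 and 42.2 CPM in macrophages and monocytes. Cysltr1, the receptor for cysteinyl leukotrienes, had 101 and 95.5 CPM in macrophages and monocytes and 51.4 and 74.2 CPM in dendritic cells, whereas Cysltr2 had 49.6 and 41.4 CPM in NK cell-like cells and 4.5 and 5.2 CPM in macrophages and monocytes. Ggt5 and Dpep2, which trim leukotriene C4, had at most 5.78 CPM in macrophages and in dendritic cells. Dpep2 has duplicate entries among the listed genes, and only the first was read. Of the other lipoxygenases, Alox12e, a relative of Alox15, had 29.2 and 63.1 CPM in eosinophil-like cells and at most 0.608 CPM in macrophages and dendritic cells.

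For each of the 10 genes, the genes with the most alike pattern were sought over 39 points, each a class or state in 1 library, among 10702 genes. The points share libraries and some share cells, so these correlations describe the pattern and carry no test. The levels of Ptgs2 followed Lilr4b (r = 0.94), Osm (0.93) and Ier3 (0.93). Alox15 followed Inpp5j (0.96), Tesc (0.94) and Fcer1a (0.93), Alox5 followed Aqp9 (0.86), Pi16 (0.81) and Lilra6 (0.81), and Alox5ap followed Fes and Ptpre (both 0.85). Pla2g4a followed Clec4a2 (0.90), Adam15 (0.90) and Rab5c (0.86), and Hpgds followed Scamp5 (0.85), Gpx3 (0.83) and Prune2 (0.82). For Ptger4 they were Plekha1, Phlpp1 and Smurf1 (0.82, 0.82 and 0.81), for Ptgs1 Retnla, Mag and Mier2 (0.68, 0.63 and 0.61), for Ptges Samd8, Gm15880 and Jag1 (0.75, 0.75 and 0.72) and for Ltc4s Rnf152, Gm37422 and Efnb2 (0.70, 0.69 and 0.68). Within the 10 genes the closest pair was Alox5 and Alox15, with r = 0.63, and among the clustered classes both were highest in eosinophil-like cells.

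Single cells were also read for pairs of genes, each cell thinned to 2000 UMIs. A Ptgs2 UMI was found in 52.8% (47.2 to 58.3) of Irg1+/+ macrophages and monocytes with a Ptger4 UMI and in 48.8% (46.4 to 51.1) of those without, and in the library labelled Irg1-/- in 41.8% and 40.1%. An Alox5 UMI was found in 2.03% and 1.51% of macrophages and monocytes with and without an Alox5ap UMI in the Irg1+/+ library, and in 2.67% and 1.14% in the other. For Alox5 the 95% intervals of cells with and without Alox5ap overlapped in both libraries, and so did those for Ptgs2 and Ptger4. For 2 sparser pairs they did not overlap in 1 library: 8 of 9 Irg1+/+ macrophages and monocytes with a Ptges UMI had a Ptgs2 UMI, or 88.9% (51.8 to 99.7) against 49.2% (47.1 to 51.4) without, and 3 of 44 cells with an Alox5 UMI in the library labelled Irg1-/- had an Ltc4s UMI, or 6.82% (1.43 to 18.7) against 0.766% (0.430 to 1.26). In the other library these pairs rested on 3 of 4 and 0 of 39 cells, and the intervals overlapped. Mast cells, a classical source of leukotrienes and prostaglandin D2, were then sought by marker UMIs. At least 10 UMIs of Cpa3, Tpsb2, Mcpt4 and Cma1 were found in 4 and 5 cells. This minimum is hard to reach in shallow cells, so it does not show how many mast cells were present. The 4 and 5 cells had 7 and 12 UMIs of Hpgds, or 319 and 399.9 CPM. Their Alox5 UMIs were 3 and 25, or 137 and 833 CPM. In the library labelled Irg1-/- this Alox5 level was above that of eosinophil-like cells. In an unnamed cluster of 670 cells, with a median of 652 UMIs, mast cell markers scored highest, at 2.705. Alox5 in that cluster was at 17.3 and 109 CPM.

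Granulocytes were read once more by gates on the UMIs of each cell in place of clusters. The neutrophil gate took 48 and 144 cells and gave Ptgs2 at 1246 and 2104 CPM and Alox5 at 135 and 96.2 CPM. The eosinophil gate took 79 and 91 cells, of which only 26 and 56 were in the eosinophil-like cluster, since UMIs of Ccr3, Siglecf and Il5ra also occurred in cells of other clusters. Alox15 was at 82.0 and 452 CPM in all gated cells and at 1779 and 1834 CPM in those that were also in the cluster. The level of Alox15 and its ratio between the libraries in gated cells thus moved with the cells of other clusters that the gate took in. Alox5 was at 20.9 and 113 CPM in all cells of the eosinophil gate, below the neutrophil gate in the Irg1+/+ library. In those also in the cluster it was at 285 and 546 CPM.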

How the data were processed

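The authors deposited unnormalized UMI counts for every gene in every cell, made from reads processed with fastp, UMI-tools and STAR against Ensembl release 100 (the submitters' notes also name CASAVA 1.8, Seurat and GRCm38). Of the cells, those over 200 genes with a mitochondrial share below 10% entered the analysis, and mitochondrial genes were dropped after this filter. Cells were clustered in Seurat 5.3.0 (R 4.3.3) with 2000 variable genes, 10 principal components and resolution 0.8, leaving out the 10 genes and the 48 pathway genes, and macrophages and dendritic cells were clustered again. Classes with a mean marker z score of at least 0.5 and 3 or more markers raised and detected in at least 0.1 of the cells (as a fraction) could name a cluster. The highest score named it, and scores within 0.05 were settled by the markers among its 10 leading genes. It stayed unnamed where another class had more markers among these, or where it was shallow with none of its own. This rule was set after the clusters were seen. Scrublet (scanpy 1.11.5) called 0 doublets and its calls were not used, so doublets were kept, and its scores served only for an alternative. Ratios are log2 of CPM with 0.5 UMIs added, and intervals are exact Poisson for CPM, exact Clopper-Pearson for shares and exact conditional binomial for ratios. UMI intervals cover counting error only. The ratio step was tested on simulated data. TMM factors came from edgeR 4.0.16. Positions are from GENCODE vM21 (GRCm38). Named are the 10 genes in every class, pathway genes with at least 100 UMIs or past 1.5-fold, Acod1, and for each of the 10 genes the 3 most alike in pattern, by Pearson r of log2(CPM + 10) over classes and states with at least 30 cells. For Alox5ap, 1 of these is not reported here. The genes and lists were chosen with earlier results of these data known. Python 3.11.15, numpy 2.4.6, scipy 1.17.1 and pandas 2.3.3 were used. The alternatives tried were scaling, UMI minimum, mitochondrial limit, doublet scores, clustering settings, all variable genes, gates, and, added after seeing the data, the removal of basophil-marker, deep or shared-barcode cells and weighting by subcluster.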

Additional observations from a re-analysis of the deposited data

Results flagged for a closer look

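With the clusters used above, the Ptgs2 ratio between the libraries ran in opposite directions in the 2 granulocyte classes. Its log2 ratio, Irg1-/- over Irg1+/+, was 0.99 in neutrophil-like cells and -0.61 in eosinophil-like cells. With 1 library per genotype the difference between these ratios was not tested. Without the 5 cells with basophil genes the eosinophil-like ratio was -0.14.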

How the results depend on the processing

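No paired analysis was possible because each genotype has 1 library and no test was made, and no replicate could be left out. The count of the 10 genes past 1.5-fold in neutrophil-like cells, 3, became 6 with a minimum of 1 UMI and 1 with gates. It was 2 with TMM, the mean of each cell's CPM, a minimum of 50 UMIs, all variable genes, and without the top 5% of doublet scores or the cells over 5000 UMIs. In eosinophil-like cells the count, 1, became 3 with a minimum of 1 UMI, 4 with gates, 2 with all variable genes used for clustering, 0 with the mean of each cell's CPM and 0 without the cells with basophil genes. In dendritic cell-like cells the count, 1, became 3 with 20 principal components and 2 with the mean of each cell's CPM, 2 with under 5% mitochondrial UMIs and 2 without the top 5% of doublet scores. In macrophages and monocytes the count, 6, was 5 with TMM and with gates, 7 with 20 principal components, and 3 and 4 with the subclusters weighted as in the Irg1+/+ library and as in the library labelled Irg1-/-. The log2 ratio of Ptgs2 in eosinophil-like cells changed sign with all variable genes, to 0.097, and was -0.13 with gates. The cause was not tested. Gates moved 17 of 25 ratios and 15 of 23 levels beyond their intervals, and each weighting by subcluster moved 2 of 10 macrophage and monocyte ratios. Clustering with all variable genes moved 16 levels and left 38 within their intervals, and 20 principal components moved 5 and left 18. Leaving out shared barcodes moved none of 28 ratios. The small number of granulocytes limits the precision of their values.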
